A study of Mus musculus with 16 samples.

Results

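The genes described here encode the neuronal intermediate filament proteins and their companions in the retinal ganglion cell (RGC) axon: *Nefl*, *Nefm*, *Nefh*, *Ina* and *Prph*, the synuclein genes *Sncb* and *Sncg*, and *Thy1*. They were chosen by symbol, and for each the annotated transcript carrying most counts stands for the gene. The 8 genes held 13 of the 117860 transcripts counted, among 47451 gene symbols. All 8 passed the filter on low counts in both experiments.

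Neurofilaments are heteropolymers that fill large axons and set their caliber, and in the retina they are often used to mark RGCs, which have long axons. *Nefl* encodes the light chain that forms the core of the filament, *Nefm* and *Nefh* encode the medium and heavy chains whose long tails project from it, *Ina* encodes α-internexin, and *Prph* encodes peripherin, a filament protein best known from peripheral neurons that can assemble with the neurofilament chains. Synucleins are small soluble proteins of axons and presynaptic terminals, with β-synuclein made by *Sncb* and γ-synuclein by *Sncg*. *Thy1* encodes a cell surface glycoprotein anchored by a lipid, which has long been used as an RGC marker.

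Ribosome-bound RNA was collected from retinas of mice at postnatal day 60 by immunoprecipitation (IP) of RPL22 carrying an HA tag, whose tagged form depends on Cre recombinase. In the first experiment, *Opn4-Cre; Rpl22-HA* mice and *Opn4-Cre* mice without the tag (untagged) each gave 2 IPs and 2 inputs, the input being 1.5% of the lysate. The second experiment had 4 control IPs (*Opn4-Cre; Rpl22-HA*, with both *Pou4f2* alleles intact by the methods) and 4 Brn3bcKO IPs (*Opn4-Cre; Rpl22-HA; Brn3bcKO-AP*), 3 from males and 1 from a female in each group. In Brn3bcKO, *Pou4f2*, the gene of the transcription factor BRN3B, is deleted where Cre acts. Every group of both experiments therefore carried *Opn4-Cre*, which acts in the melanopsin-expressing intrinsically photosensitive RGCs (ipRGCs), and the retinas of an animal were combined before lysis.

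Library totals ran from 2332612 to 14512132 counts in the first experiment and from 12994498 to 20350881 in the second. Levels are given as CPM, the share of all counts in a library scaled to a fixed total after TMM correction. Summed counts of 4 Y-linked genes were 0 to 7 in the untagged libraries and 135 to 370 in the tagged ones, which goes against the label of pooled male and female mice for the untagged libraries, so comparisons with the untagged IP cannot be told apart from sex. Cone genes were also abundant in the IP, and the methods name some cones beside ipRGCs among the HA-labelled cells. All 11 cone genes listed were higher in the Rpl22-HA IP than in the input (median log2 fold change 3.10), beside 11 of 12 pan-RGC genes (median 2.33) and 7 of 8 ipRGC genes (median 2.68). *Pou4f2* stood at 36.8, 44.7, 53.6 and 64.2 CPM in the control IPs and at 18.8, 24.9, 33.8 and 34.0 in the Brn3bcKO IPs. Its groups did not overlap, yet its RNA was not absent. The difference did not pass the test (log2 fold change −0.83, standard error, SE, 0.22, adjusted p = 0.0561 from edgeR). It passed in 8 of 19 alternatives, among them DESeq2 (adjusted p = 0.0118). By in situ hybridization the study reported *Pou4f2* RNA as absent from Brn3bcKO ipRGCs, and its discussion also mentions imperfect excision of the gene.

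The positions of the genes are those of GENCODE release M21 on mm10. *Nefl* lies on chromosome 14 from 68083863 to 68089095 on the plus strand. On the same chromosome *Nefm-201*, the *Nefm* transcript with most counts, runs from 68119283 to 68124846 on the minus strand. Between *Nefl* and *Nefm-201* lie 30.2 kb. *Nefh* is on chromosome 11 (4938754 to 4948064, minus), *Ina* on chromosome 19 (47014698 to 47025327, plus) and *Prph* on chromosome 15 (99055175 to 99058977, plus). *Sncb* is on chromosome 13 (54758860 to 54766595, minus), *Sncg* on chromosome 14 (34370274 to 34374789, minus) and *Thy1* on chromosome 9 (44043384 to 44048579, plus). The first 456 bases of *Ina* also lie in the transcribed span of *Nt5c2* on the opposite strand. Strand use in the counting was not given in the sources used here.

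**Figure D1:**
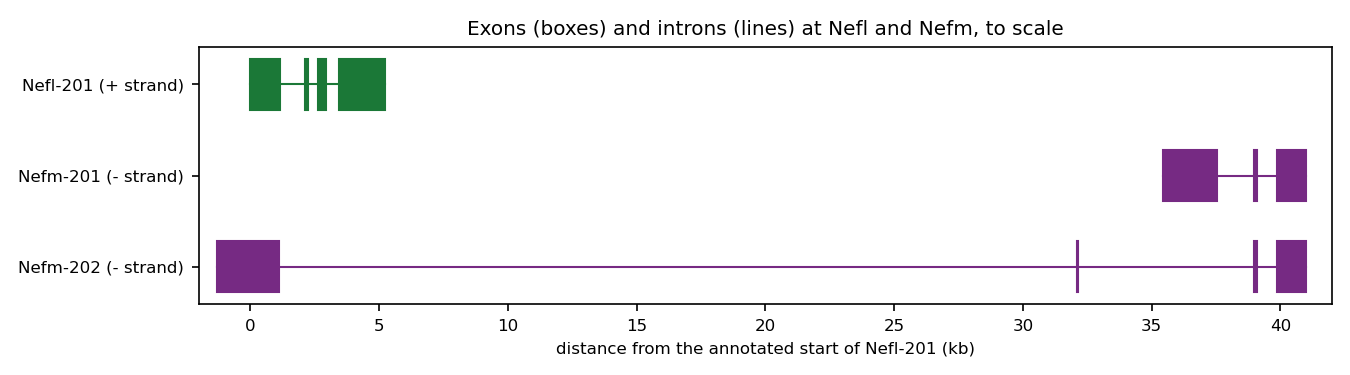
Exons (boxes) and introns (lines) of *Nefl-201*, *Nefm-201* and *Nefm-202*, drawn to scale against the distance in kb from the annotated start of *Nefl-201*. The last exon of *Nefm-202* overlaps the first exon of *Nefl-201* on the opposite strand.

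*Nefm* has a second annotated transcript, *Nefm-202*, that spans 68082590 to 68124846 and ends beyond the start of *Nefl*. Its last exon shares 1108 bases with the first exon of *Nefl* (68083863 to 68084970) on the opposite strand, so without strand a read there could be assigned to either gene. The map of the locus shows this overlap. Of the counts given to both *Nefm* transcripts, *Nefm-202* took 48.7% to 51.9% in Rpl22-HA inputs, 23.4% to 29.3% in Rpl22-HA IPs, and 17.7% to 39.6% in control IPs of the second experiment. Both *Nefm* transcripts share exons 1 (1107 bases) and 2 (125 bases), and how reads there were assigned was not given in the sources used here. These percentages are therefore shares of the deposited counts only. *Nefm-201*, which shares no exon with *Nefl*, stands for the gene below.

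Promoters of the genes that fell in Brn3bcKO (*Prph* and *Sncg*) and of *Sncb*, the other synuclein gene, are shown because these 3 mark the ends of the range of changes described below. They were taken from RefSeq on GRCm38.p6, the assembly of mm10, which held a promoter for 4 of the 8 genes, and each window ends at the base before the most upstream start that RefSeq or GENCODE gives. For *Prph* this is the RefSeq start, which lies just before the GENCODE start given above. Motifs were searched on both strands, and the capitals mark the letters of a TATA box (TATAAA) in *Prph* and of a POU4 half-site (GCATAAT) in *Sncb*.
Prph, chr15:99054924-99055173, plus strand: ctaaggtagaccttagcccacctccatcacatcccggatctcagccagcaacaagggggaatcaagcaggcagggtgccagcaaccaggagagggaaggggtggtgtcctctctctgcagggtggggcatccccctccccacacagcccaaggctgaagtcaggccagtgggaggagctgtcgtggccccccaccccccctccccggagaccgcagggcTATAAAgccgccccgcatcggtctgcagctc
Sncg, chr14:34374790-34374919, minus strand: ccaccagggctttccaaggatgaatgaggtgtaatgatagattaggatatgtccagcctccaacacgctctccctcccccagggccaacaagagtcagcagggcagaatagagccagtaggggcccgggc
Sncb, chr13:54766596-54766845, minus strand: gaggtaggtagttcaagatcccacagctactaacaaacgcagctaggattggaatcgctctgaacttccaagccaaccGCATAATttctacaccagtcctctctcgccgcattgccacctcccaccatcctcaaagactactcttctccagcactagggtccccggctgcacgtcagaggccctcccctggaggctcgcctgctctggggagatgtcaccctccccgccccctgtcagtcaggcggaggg
The TATAAA of *Prph* begins 31 bases before that start, and 12.4% of 32851 mouse promoters of 250 bases hold these letters. The GCATAAT of *Sncb* begins 172 bases before the start, and 1.34% of promoters hold it. Neither motif occurs in the 130 bases shown for *Sncg*, a shorter window, and the homeodomain core TAATTA, found in 4.84% of promoters, occurs in none of the 3. These matches describe the letters in the windows only.

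All 8 genes were higher in the Rpl22-HA IP than in the input, by log2 fold changes of 0.42 to 5.01 (median 2.76, against 0.21 over all 14102 genes tested). Of those genes, 26.9% were higher by the same test, edgeR's quasi-likelihood test with Benjamini-Hochberg adjustment. The calls over all genes were 3788 higher and 1705 lower, and with upper-quartile scaling 2554 and 2672. The spread was wide, with peripherin and γ-synuclein at the upper end and β-synuclein at the lower.

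*Nefl* measured 1706 and 1646 CPM in the tagged IPs against 262 and 247 CPM in their inputs. Its log2 fold change was 2.72 (SE 0.17, adjusted p = 2.97e-09). *Nefm* measured 447 and 411 CPM in the IPs against 68.2 and 54.8 CPM in the inputs, a log2 fold change of 2.80 (SE 0.20). *Nefh* was at 99.2 and 97.9 CPM against 12.8 and 13.4 CPM, a log2 fold change of 2.91 (SE 0.24). These 3 log2 fold changes lay closer together than the standard error of *Nefh*. *Nefm-202*, which is not an independent measurement of the gene, had a smaller log2 fold change of 1.33. α-Internexin lay below the chains, with *Ina* at 219.9 and 170.3 CPM in the IPs and 54.9 and 52.3 CPM in the inputs, a log2 fold change of 1.86 (SE 0.17).

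*Prph* showed the largest change among the 8 genes. It stood at 181 and 162 CPM in the IPs and at 4.89 and 5.69 CPM in the inputs, a 32.3-fold difference (log2 fold change 5.01, SE 0.26, adjusted p = 6.01e-10), and it ranked 30th from the top of 14102 genes. The second transcript of the gene, *Prph-201*, has nearly equal counts and is not an independent measurement. *Sncg* followed at rank 103, with 855 and 787 CPM in the IPs and 71.2 and 71.0 CPM in the inputs (log2 fold change 3.53, SE 0.17). *Thy1* was at 497 and 450.3 CPM in the IPs against 120.3 and 104 CPM in the inputs, a log2 fold change of 2.08 (SE 0.16).

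*Sncb* was barely higher in the IP, at 252 and 222 CPM against 183 and 171 CPM in the inputs. The log2 fold change of 0.42 (SE 0.15) passed the test with an adjusted p of 0.0398 from edgeR, at rank 5405 of 14102 genes. The call was kept in 3 of 12 alternatives and lost in 9, among them leaving out either IP or either input library (adjusted p = 0.156 to 0.655) and upper-quartile scaling (adjusted p = 0.365).

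**Figure D2:**
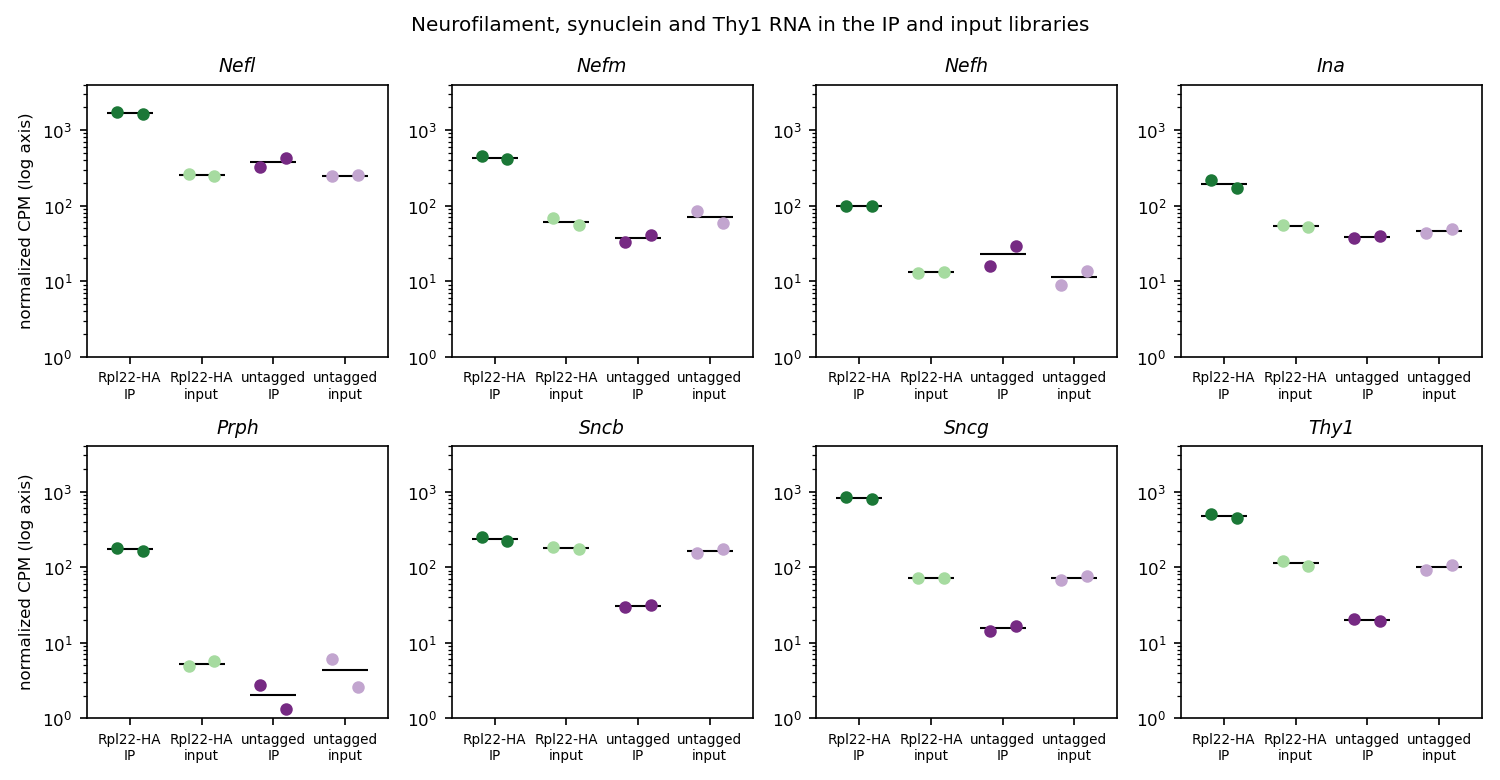
Normalized CPM (log axis) of each gene in the Rpl22-HA IP, Rpl22-HA input, untagged IP and untagged input, with 2 libraries a group (points) and the group mean (line). The Rpl22-HA IPs are the highest libraries for every gene, and for *Sncb* they lie close to the inputs.

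RNA of these genes was also recovered without the tag. In the untagged IP, *Nefl* and *Nefh* were higher than in the untagged input (log2 fold changes 0.60 and 0.94, adjusted p = 0.00485 and 0.00690 from edgeR), where 29.5% of all genes were higher. *Nefl* stood at 329 and 427 CPM in the untagged IPs against 247 and 251 CPM in their inputs, and *Nefh* at 15.8 and 29.6 CPM against 9.0 and 13.5 CPM. Both calls rested on the second untagged IP: without it the adjusted p was 0.114 for *Nefl* and 0.255 for *Nefh*, and that of *Nefh* was 0.0682 without the first untagged input.

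The other members lay lower or did not pass. *Nefm*, *Sncb*, *Sncg* and *Thy1* were lower in the untagged IP than in its input (log2 fold changes −0.92, −2.44, −2.21 and −2.30), where 25.4% of all genes were lower. *Sncg*, for example, stood at 14.3 and 16.7 CPM in the untagged IPs and at 68.3 and 75.6 CPM in the inputs. *Ina* (−0.29, adjusted p = 0.170) and *Prph* (−0.85, adjusted p = 0.0918) did not pass the test. *Prph* rested on 15 to 29 counts a library here, and it passed with IP and input of each lysate as a replicate block (adjusted p = 0.0138). Leaving out 1 library moved its log2 fold change to between −1.60 and −0.40, and it passed without the first untagged IP (adjusted p = 0.0149) and without the second untagged input (adjusted p = 0.0261).

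Enrichment differed with the tag for all 8 genes, as the contrast that subtracts the untagged enrichment was above 0 with adjusted p values of at most 0.000354 from edgeR (24.1% of all genes were higher in it). *Prph* and *Sncg* had the largest values, at 5.87 (SE 0.52) and 5.74 (SE 0.24) on the log2 scale, followed by *Thy1* at 4.38 and *Nefm* at 3.72. *Sncb* was at 2.86, *Ina* at 2.16, *Nefl* at 2.12 and *Nefh* at 1.97. The order of the neurofilament chains therefore differed from that of the plain IP over input comparison, with *Nefl* and *Nefh* higher in the untagged IP than in its input and *Nefm* lower. Against the untagged IP directly, all 8 were higher, by log2 fold changes of 2.11 to 6.43 (33.7% of all genes were higher).

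Per kilobase of transcript, which allows genes to be compared if reads spread evenly over a transcript, the order of the levels in the Rpl22-HA IP was *Sncg* (964 ± 55.9 CPM per kb, SD, n = 2), *Nefl* (496 ± 12.5), *Thy1* (273 ± 18.9), *Sncb* (175 ± 15.3), *Nefm* (129 ± 7.67), *Prph* (92.1 ± 6.98), *Ina* (60.2 ± 10.8) and *Nefh* (24.7 ± 0.234). No neighbours in this order had overlapping library values. In the input the order was another, led by *Sncb* (131 ± 6.28 CPM per kb, SD, n = 2) and followed by *Sncg* (83.5 ± 0.199), *Nefl* (75.3 ± 3.04) and *Thy1* (64.5 ± 6.78). *Nefm* (18.5 ± 2.84) and *Ina* (16.5 ± 0.567) overlapped there, and *Nefh* (3.27 ± 0.105) and *Prph* (2.84 ± 0.304) came last. By the transcript with most counts, *Prph* moved from the lowest level in total retina to a level above *Ina* and *Nefh* in the IP. Counts of *Prph-201* and *Nefm-202* were left out of these levels. The order of *Nefm*, *Ina*, *Nefh* and *Prph* in the input therefore holds only for the transcripts that stand for the genes.

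Brn3bcKO IPs held less RNA of *Sncg* and *Prph* than control IPs, and the other 6 genes did not pass the test. All 8 fitted log2 fold changes were below 0, from −1.18 to −0.19, with a median of −0.56 against −0.09 over the 7184 genes tested. Of these, 2.91% were called lower. Genes were tested if they passed the filter on low counts and were higher in the Rpl22-HA IP than in the untagged IP of the first experiment, as the study's methods select them. In bulk IPs, fewer cells of a type and less RNA per cell cannot be told apart. The study counted fewer HA-labelled cells in the ganglion cell layer of Brn3bcKO retinas, while HA-labelled cones did not differ. Melanopsin labelling, which the study weighs more, showed no change in ipRGC number. For selected transcripts the methods adjust fold changes by the ratio of these HA-labelled cells, and that adjustment was not made here.

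γ-Synuclein changed most. *Sncg* stood at 866, 719, 912 and 1179 CPM in the control IPs and at 457, 391, 436 and 337 CPM in the Brn3bcKO IPs, so that every Brn3bcKO library lay below every control library. The fitted level in Brn3bcKO was 44.1% of that in control (log2 fold change −1.18, SE 0.19, adjusted p = 0.00440 from edgeR), and the gene ranked 120th from the lowest of 7184. The call held when any of the 8 libraries was left out (adjusted p at most 0.0199) but not in the 6 male libraries alone (log2 fold change −1.13, adjusted p = 0.0567).

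*Prph* stood at 250.2, 144, 171 and 148 CPM in the control IPs and at 108, 79.8, 113 and 86.9 CPM in the Brn3bcKO IPs. The groups did not overlap, and control replicate 1 was the highest. The level in Brn3bcKO was 54.4% of control (log2 fold change −0.88, SE 0.21, adjusted p = 0.0328 from edgeR). This call was near the threshold. It was lost without control replicate 1, 3 or 4 or Brn3bcKO replicate 2, 3 or 4 (adjusted p = 0.0603 to 0.0976) and without the selection (adjusted p = 0.0547), where 0.919% of all genes were lower and *Sncg* alone of the 8 was called.

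None of the neurofilament chains, nor *Ina*, passed the test. *Nefl* stood at 2016, 1444, 1720.2 and 1888 CPM in the control IPs and at 893, 849, 1273 and 1261 CPM in the Brn3bcKO IPs. These groups did not overlap either, and the log2 fold change was −0.73 (SE 0.20, adjusted p = 0.0584 from edgeR). *Nefl* passed in 6 of 19 alternatives, among them DESeq2 (adjusted p = 0.00644) and a fit on the selected transcripts alone (adjusted p = 0.0366), which was chosen after seeing the data. *Sncg*, *Prph* and *Nefl* were thus the 3 genes of the 8 whose groups did not overlap, where 9.15% of all genes tested had every Brn3bcKO library below every control library.

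*Nefm* was at 759, 329.9, 454 and 529.5 CPM in the control IPs and at 380.3, 239.5, 336 and 451 CPM in the Brn3bcKO IPs, with a log2 fold change of −0.56 (SE 0.25, adjusted p = 0.25). Control replicate 1 was again the highest library, and the groups overlapped. *Nefh* had 98.8, 81.7, 98.1 and 116 CPM in control and 54.9, 63.4, 84.3 and 96.3 CPM in Brn3bcKO (log2 fold change −0.40, SE 0.20, adjusted p = 0.292). *Ina* had 217, 173, 219 and 225 CPM in control and 122, 137, 194 and 205 CPM in Brn3bcKO (log2 fold change −0.34, SE 0.19, adjusted p = 0.364). For both genes Brn3bcKO replicates 1 and 2 lay below every control library, and replicates 3 and 4 lay within the control range.

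*Thy1* stood at 715, 366, 455 and 471 CPM in the control IPs and at 500.3, 252, 309 and 294 CPM in the Brn3bcKO IPs. In both groups replicate 1 was the highest, and the groups overlapped through Brn3bcKO replicate 1 (log2 fold change −0.57, SE 0.24, adjusted p = 0.231). Among the alternatives *Thy1* passed only with the replicate number as a block (adjusted p = 0.0194 from edgeR). The labels do not say that these numbers pair the mice. *Sncb* was at 225, 159, 169 and 231 CPM in control and at 219, 142, 163 and 164 CPM in Brn3bcKO. Its log2 fold change of −0.19 (SE 0.19, adjusted p = 0.636) was the smallest of the 8.

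**Figure D3:**
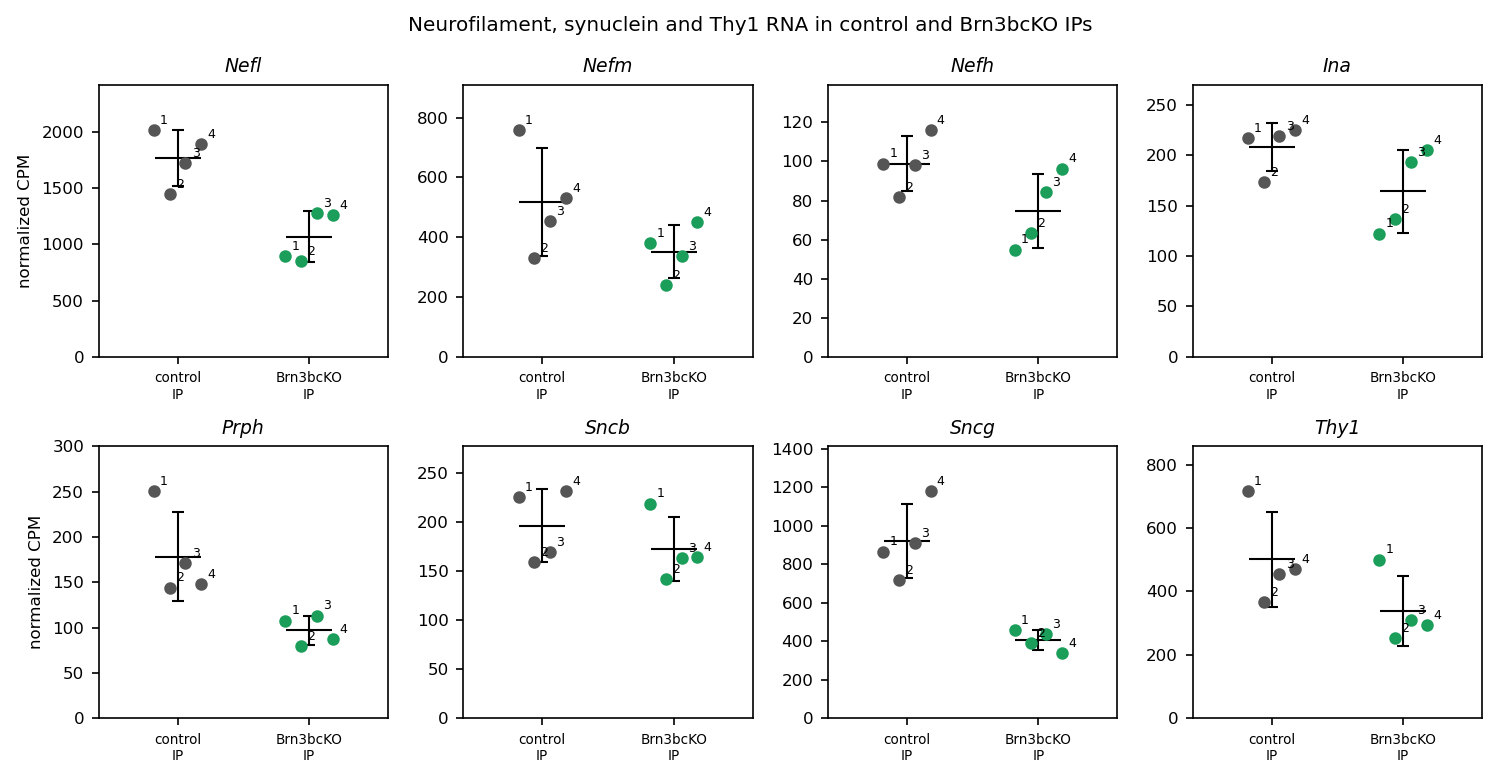
Normalized CPM of each gene in 4 control and 4 Brn3bcKO IPs, with replicate numbers beside the points, the mean (long line) and the SD (bars). The groups do not overlap for *Sncg*, *Prph* and *Nefl*, and they overlap for the other 5 genes.

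**Figure D4:**
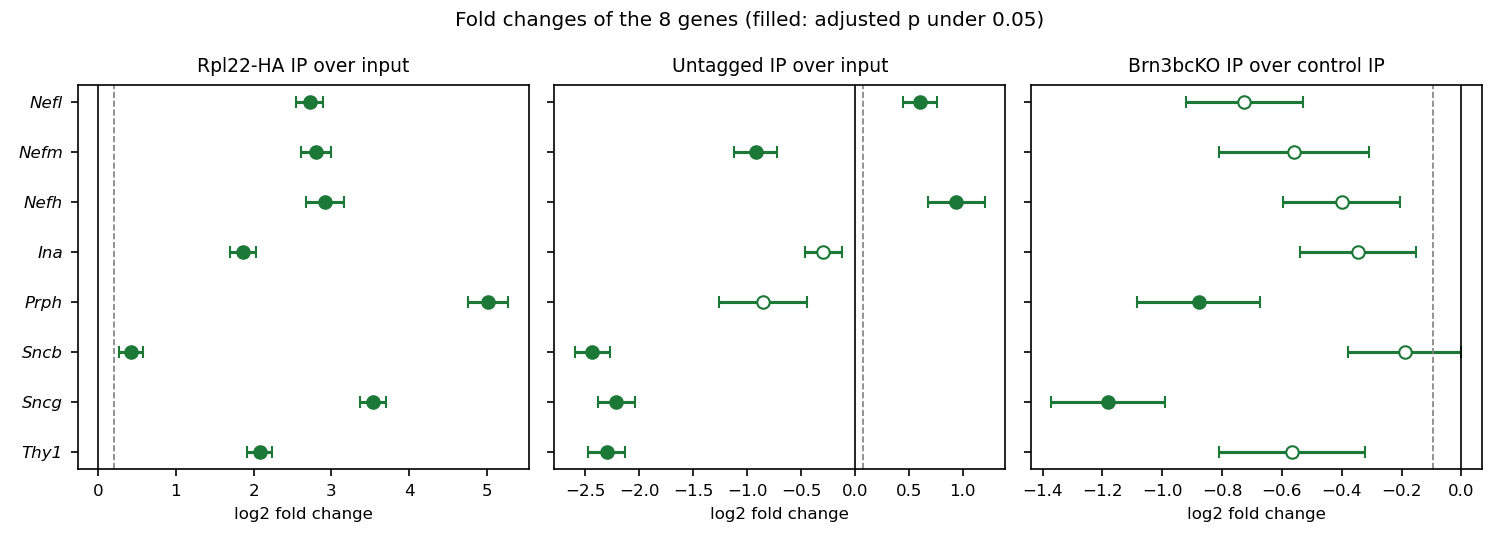
Log2 fold changes of the 8 genes with standard errors in 3 comparisons, filled where the adjusted p is under 0.05. The dashed line is the median over all genes tested and the solid line is 0.

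Other cell type genes moved with this comparison. The 12 pan-RGC genes, which do not include the 8, summed to 2077 to 2757 CPM in the control IPs and to 1295 to 1746 CPM in the Brn3bcKO IPs, and 4 of the 11 tested were lower (median −0.56 on the log2 scale), without the selection as well. The 11 cone genes summed to 4220.2 to 7331 CPM in control and to 8364 to 11770 CPM in Brn3bcKO. Of them 8 were higher (median 0.90; 6 without the selection), where 1.36% of all genes were higher. The 11 rod genes summed to 6899 to 9410 CPM in control and to 9998 to 15235 CPM in Brn3bcKO. Of 5 rod genes tested 1 was higher, and 0 without the selection. Amacrine genes summed to 121 to 157 CPM in control and to 169 to 191 CPM in Brn3bcKO, and bipolar genes to 209 to 280 and 283 to 374 CPM. The sums overlapped for glial genes (139 to 227 and 218 to 290 CPM) and horizontal cell genes (208 to 287 and 114 to 241 CPM). The 8 ipRGC genes summed to 320.4 to 476 CPM in control and to 275 to 393 CPM in Brn3bcKO, 1 of them was lower, and none of these lists had a gene at 0 in all libraries of a group. The part of these shifts in the changes of the 8 genes was not tested. When libraries were scaled to the pan-RGC genes instead, the median of all genes moved by 0.71 and that of the 8 genes to 0.15. No gene of the 8 then passed, and calls over all genes went from 98 higher and 209 lower to 2854 and 44. *Sncg* was at −0.44 (adjusted p = 0.132 from edgeR), *Prph* at −0.20 and *Nefl* at −0.05. Of the pan-RGC genes 4 were themselves lower, as given above. A fall shared with that list is taken out by this scaling, so the lost calls do not show that the 8 genes were unchanged.

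Ratios of 2 genes within a library do not depend on how libraries are scaled. Of 7 ratios compared, the groups did not overlap for 3. These all had the smallest p that 4 against 4 libraries allow (exact permutation p = 0.0286, two-sided, 70 splits), or 0.0667 after adjustment over the 7. None passed, and at this number of libraries 3 fully separated ratios of 7 could not have passed. *Sncb* over *Sncg* was 0.185 to 0.260 in the control IPs and 0.363 to 0.486 in the Brn3bcKO IPs, a difference of 0.98 in mean log2 ratio. *Ina* over *Nefl* was 0.108 to 0.127 in control and 0.137 to 0.163 in Brn3bcKO (difference 0.37), and *Nefh* over *Nefl* was 0.0490 to 0.0615 and 0.0616 to 0.0764 (difference 0.31), where the closest libraries differed only in the fourth digit. The other 4 ratios overlapped. *Sncg* over *Thy1* differed by −0.59 (exact permutation p = 0.0857, adjusted 0.150), *Sncg* over *Nefl* by −0.43 (exact permutation p = 0.171), *Nefm* over *Nefl* by 0.21 (exact permutation p = 0.343) and *Prph* over *Nefl* by −0.12 (exact permutation p = 0.629).

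**Figure D5:**
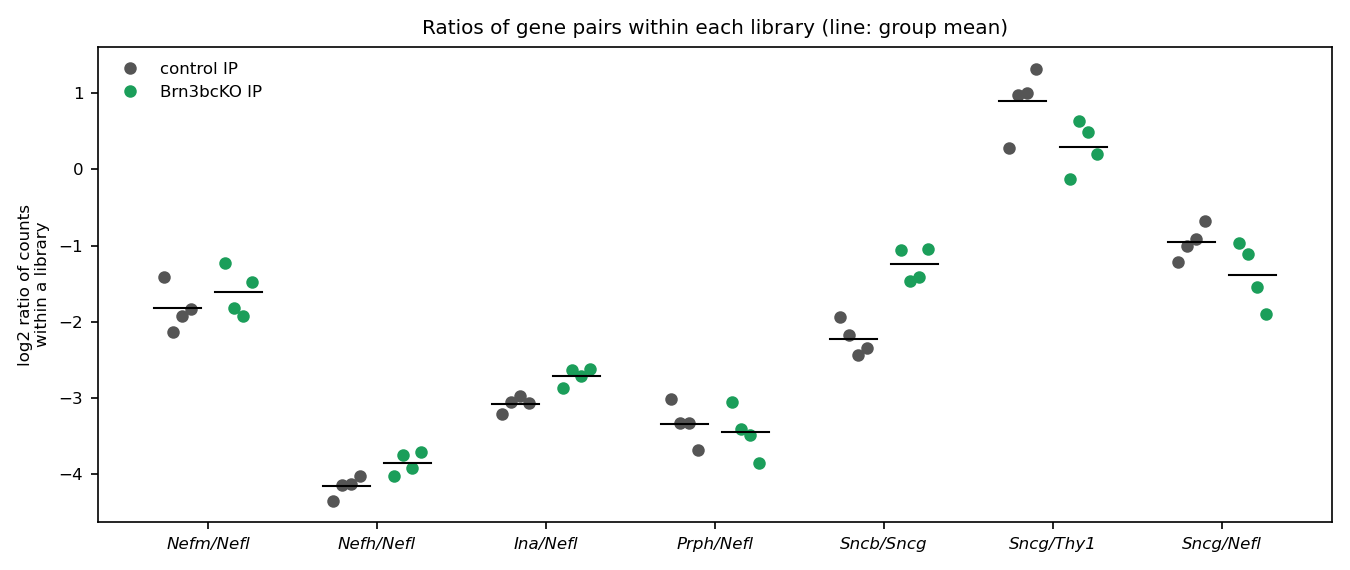
Log2 ratios of counts of 2 genes within each library for 7 pairs, in 4 control and 4 Brn3bcKO IPs (points) with group means (lines). The ratios of *Nefh* and *Ina* to *Nefl* and of *Sncb* to *Sncg* are higher in every Brn3bcKO library than in any control library.

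Partners of these proteins gave the following counts. Of 9 partner genes of the synucleins that passed the filter, 5 were higher in the Rpl22-HA IP than in the input and none was lower (median 0.51), where 26.9% and 12.1% of all genes were. *Uchl1*, a ubiquitin hydrolase of neurons that the pan-RGC list also holds, had a log2 fold change of 2.76, *Hspa8*, a cytosolic chaperone, 1.02, and *Ywhaq*, a 14-3-3 protein, 0.88. In the untagged IP 8 of these 9 were lower than in the input, against 25.4% of all genes. In Brn3bcKO 1 of the 9 was lower, *Uchl1*, which fell from a mean of 846 to 483 CPM (log2 fold change −0.81, SE 0.18, adjusted p = 0.0253 from edgeR). Its call was lost without control replicate 3 or 4 or Brn3bcKO replicate 2 or 3 (adjusted p = 0.0630 to 0.0992).

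Partners of neurofilaments and microtubules were mixed. Of 18, 11 were higher in the Rpl22-HA IP and 1 was lower (median 0.74, against the same shares of all genes), with the kinesin heavy chain *Kif5a* at 2.08, the cytoskeletal linker *Dst* at 2.40 and *Macf1* at 2.43, while *Cdk5r1*, an activator of a kinase that acts on neurofilaments, was lower at −0.65. In the untagged IP over its input, 9 of the 18 were higher and 6 were lower (median 0.49), where 29.5% and 25.4% of all genes were. *Dst* and *Macf1* rose more in the untagged IP over its input (4.53 and 4.92). Both were therefore higher relative to input without the tag than with it. None of the 11 partners tested passed in Brn3bcKO (median −0.17). Among 8 intermediate filament genes of other cells, 1 was higher in the Rpl22-HA IP, the synemin gene *Synm* (1.18, against 3.70 in the untagged IP), and 3 were lower. *Vim* (−2.01) and *Gfap* (−2.80), the filament genes of Müller glia and astrocytes, were lower, as was the lamin gene *Lmnb1* (−1.31). Of these other filament genes 2 were tested in Brn3bcKO and none passed.

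Over the 16 libraries, each experiment centred on its own mean, the genes whose log2 CPM was most like that of a member (Pearson r, among 9878 genes) were *Fkbp1b*, *Lgals1* and *Tpi1* for *Sncg* (r = 0.993, 0.991 and 0.991), *Nat8l*, *Spp1* and *Prkcq* for *Prph* (0.981, 0.968 and 0.968), *Gnal*, *Phf24* and *Gpr26* for *Nefl* (0.981, 0.980 and 0.975) and *Lgi2*, *Lgi3* and *Nptx1* for *Nefm* (0.987, 0.984 and 0.977). *Phf24* was also first for *Nefh* (0.981), followed by *Gpr158* and *Pou4f2* (0.974 and 0.972). *Gm13889*, *Sv2c* and *Map7d2* were closest to *Ina* (0.982, 0.979 and 0.978), *Ctsz*, *Npdc1* and *Diras1* to *Thy1* (0.994, 0.990 and 0.988), and *Swi5*, *Rtn3* and *Mpc2* to *Sncb* (0.996, 0.995 and 0.993). The points share the split between IP, input and untagged libraries, so no p is given. Within the 8 libraries of the second experiment alone, *Nefh* and *Ina* had r = 0.98 with each other, and *Nefl* had 0.90 with each of them. *Nefm* had 0.80 with *Nefl*, 0.66 with *Nefh* and 0.67 with *Ina*. *Sncb* had 0.25 with *Nefh* and 0.20 with *Ina*, but 0.76 with *Nefm* and 0.86 with *Thy1*. These 8 libraries share the split between control and Brn3bcKO.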

How the data were processed

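Libraries were prepared with a modified Smart-seq3 protocol, and per the labels and methods the authors aligned 37 bp read pairs to mm10 and deposited raw whole-number counts per Ensembl transcript, not normalized. The annotation used was not given in the sources used here. Of 117860 transcripts, 116747 (99.06%) matched GENCODE M21 by identifier, including all 13 of the 8 genes. Groups follow the labels, and 0 sample columns were left unused.

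Transcripts were filtered with filterByExpr (minimum count 10; 45189 kept in the first table, 43975 in the other), scaled by TMM and tested on each whole table with the quasi-likelihood test of edgeR 4.0.16 in R 4.3.3, also using limma 3.58.1 and DESeq2 1.42.0. Benjamini-Hochberg adjustment ran over all filtered transcripts, or, for Brn3bcKO, over the 22269 that were also higher in the Rpl22-HA IP than the untagged IP, at a threshold of 0.05. Counts of genes use 1 transcript a gene. Ratios add 0.5 to each count. The test was tried on simulated data. The methods give the replicates as biological, and those of the second experiment as separate mice. IP and input of a number and genotype share a lysate by the protocol, and the correlation of their deviations from group means was 0.026 (tagged) and 0.077 (untagged). Alternatives covered the tool, scaling, filter, selection, sex, transcript, block and each left-out library.

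Named genes were the 8, *Pou4f2*, up to 3 genes per direction with the smallest p from each partner list, and the 3 most like each member by correlation of log2(CPM + 1), at a mean count of at least 50. The members and lists were chosen with earlier results of these data known. From the synuclein partner list 1 gene is not reported here. In the Rpl22-HA IP over input, rod genes (10 of 11 lower), amacrine (7 of 9), bipolar (7 of 8) and glial genes (8 of 8) were mostly lower, and horizontal cell genes were mixed (2 of 6 higher, 2 lower).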

Additional observations from a re-analysis of the deposited data

Results flagged for a closer look

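The enrichment in the IP over the input differed between tagged and untagged retinas for all 8 genes, by the test of that difference in edgeR. Of all genes, 24.1% were higher in it. By the Y-linked counts given above, tag and sex cannot be told apart in this comparison. On the log2 scale the tagged enrichment exceeded the untagged one by 2.12 for *Nefl*, 3.72 for *Nefm*, 1.97 for *Nefh*, 2.16 for *Ina*, 5.87 for *Prph*, 2.86 for *Sncb*, 5.74 for *Sncg* and 4.38 for *Thy1*. For *Sncb* this came with a small rise in the tagged IP (0.42) and a large fall in the untagged IP (−2.44).

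In the control IPs, *Ina* had a library that stood apart: replicate 2, at 173 CPM, lay below the other 3 (217 to 225 CPM), with a gap of 0.839 of the range of the group. It was the only such case among 32 groups of 4 libraries examined, and chance alone gives about 1 in 20.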

How the results depend on the processing

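All 8 genes were higher in the IP against the untagged IP, and in the difference between tagged and untagged enrichment, under every alternative run. In the main fit 33.7% and 24.1% of all genes were higher in these. Over its input, the Rpl22-HA IP had 7 or 8 higher, the exception being *Sncb*. The untagged comparison had 4 to 7 called.

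The Brn3bcKO comparison, with 2 of the 8 lower, depended more on the settings. None of the 8 was called lower in the 6 male libraries (0) or with scaling to the pan-RGC genes (0). The number called was 1 without the selection, 1 or 2 with a library left out, and 4 with the replicate number as a block (*Nefl* and *Thy1* added). DESeq2, the exact test, no filter, upper-quartile scaling and the fit on selected transcripts alone (chosen after seeing the data) each gave 3. All genes called lower, 209, became 44 with pan-RGC scaling, 64 in males, 128 without the selection, 351 with the exact test, 354 without the filter, 424 with the block and 430 with DESeq2, and 77 to 191 with a library left out. Genes called higher, 98, became 3 in males, 269 in the fit on selected transcripts alone and 2854 with pan-RGC scaling, 13 to 118 with a library left out, and 173 to 200 with the block, DESeq2, the exact test or no filter. The labels share replicate numbers but do not say that they pair the mice. Correlations of same-numbered deviations were 0.395, 0.217, 0.048 and 0.0096, and 4 of 8 libraries correlated best with their own number. *Uchl1* did not pass in the male libraries (adjusted p = 0.161 from edgeR). The pan-RGC genes used for scaling include *Uchl1*, so its result under that scaling (adjusted p = 0.720 from edgeR) is no check of its call.

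Scaling to the pan-RGC genes turned *Nefm* to 0.14, *Nefh* to 0.29, *Ina* to 0.33, *Sncb* to 0.55 and *Thy1* to 0.17, none past the threshold. This scaling holds the median level of that list equal between libraries by construction. In the first table, upper-quartile scaling moved the median of all genes by −0.24 in the Rpl22-HA IP over input and by −0.14 in the untagged comparison, with 2554 genes higher and 2672 lower in the former (3788 and 1705 with TMM; RLE 3141 and 2061, median moved by −0.11). In the untagged comparison it made *Ina* pass (−0.44, adjusted p = 0.0392 from edgeR). The ratio of *Prph* to *Nefl* turned to 0.020 in the male libraries and ranged from −0.25 to 0.018 with a library left out. A ratio of second transcripts was not run, since no pair has one for both genes. The untagged inputs were shallowest, at 2332612 and 7446108 counts.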
